A study of Mus musculus with 8 samples.

Results

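Lysosomal hydrolases and membrane proteins were described as a list of 46 genes, chosen by name for a role in the lysosome and found through the RefSeq accession of each array probe, out of 20660 genes named on the arrays. Earlier results of these data were known when the list was chosen, so its shares beside those of all genes are descriptive only. The list holds 10 cysteine proteases, 3 aspartic and serine proteases, 9 glycosidases, 6 enzymes that break down glycosaminoglycans, 9 lipid hydrolases with their activator proteins, 8 proteins of the lysosomal membrane and the transcription factor *Tfeb*. Of these 46, 43 were well above background and were tested in each muscle, while *Ctso*, *Arsb* and *Galc* were not well above background on enough arrays of either muscle and have no result.

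The arrays compared skeletal muscle of male C57BL6 littermates aged 8 to 16 weeks, either wild type (WT) or heterozygous for a mutant allele of the translation factor gene *Eif6* (*Eif6*+/-). Each of 8 arrays, 4 of gastrocnemius and 4 of tibialis anterior (TA), held labelled cRNA of 1 *Eif6*+/- mouse (Cy5) and 1 WT mouse (Cy3), and the mice of an array had been paired at random within an age. The measure is the log2 ratio of *Eif6*+/- over WT, so that a negative value means less transcript in *Eif6*+/- muscle; a gene was called when limma's test of its 4 ratios against 0 gave an adjusted p under 0.1. The allele was carried by the whole animal, and the labels do not say whether the gastrocnemius and TA of a pair number came from the same mice.

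Lysosomes take up material by endocytosis and autophagy and break it down with acid hydrolases that are tagged in the Golgi and delivered by sorting receptors. Membrane glycoproteins protect the lysosomal wall, carriers and channels return the products to the cytosol, and the factor encoded by *Tfeb* binds a short motif, CACGTG with preferred flanking letters, near the start of many lysosome genes. Skeletal muscle depends on this system to clear glycogen and damaged organelles, and macrophages that reside between the fibres hold much of the same machinery.

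*Eif6* itself served to check the labels. Its ratios were -0.97, -1.15, -0.89 and -1.06 on gastrocnemius pairs 1 to 4 (mean -1.02, SD 0.11, n = 4) and -1.22, -1.03, -0.95 and -0.80 on TA pairs 1 to 4 (mean -0.999, SD 0.17, n = 4), so that all 8 arrays were low. The WT level was 2.02-fold (adjusted p 0.0241) and 1.999-fold (adjusted p 0.0109) that of *Eif6*+/-, and a second *Eif6* probe gave means of -1.13 and -1.12.

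The 250 bases before the transcription start of the members were searched for CACGTG and for the longer TCACGTGA, which contains it; both read the same on either strand. RefSeq promoters of build GRCm38.p6 matched 41 of the 46 members, in 47 windows, and *Ctsb*, *Ctsh*, *Galns*, *Asah1* and *Npc1* were not among them. CACGTG occurred in 14 of the 47 windows (29.8%) and in 1978 of all 32851 promoters of that length (6.02%), and TCACGTGA in 5 of 47 (10.6%) and in 258 of 32851 (0.785%). The genes with CACGTG were *Ctsf*, *Ctsl*, *Lgmn*, *Ctsd*, *Ctsa*, *Gla*, *Glb1*, *Gaa*, *Naglu*, *Sgsh*, *Arsa*, *Lamp1*, *Mcoln1* and *Cln3*, and those with TCACGTGA were *Ctsd*, *Ctsa*, *Gla*, *Mcoln1* and *Cln3*. Among the genes called in both muscles, *Ctsd* (lower) and *Gla* and *Sgsh* (higher) held the motif, while the letters were in no window of *Psap*, *Ids* or *Tfeb*. The windows of those 3 genes, which moved in opposite directions with the same letters upstream, and that of *Lamp1*, which has 4 matches and was called in neither muscle, lie at chr7:142387828-142388077 (*Ctsd*), chrX:134601006-134601255 (*Gla*) and chr11:119355511-119355760 (*Sgsh*), all on the minus strand, and at chr8:13158911-13159160 on the plus strand (*Lamp1*); each runs 5′ to 3′ along the gene, and capitals mark CACGTG.
Ctsd: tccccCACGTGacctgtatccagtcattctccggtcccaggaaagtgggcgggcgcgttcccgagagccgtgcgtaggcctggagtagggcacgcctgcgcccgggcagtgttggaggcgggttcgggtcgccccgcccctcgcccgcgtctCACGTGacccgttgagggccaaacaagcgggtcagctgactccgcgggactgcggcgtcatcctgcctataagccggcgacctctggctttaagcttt
Gla: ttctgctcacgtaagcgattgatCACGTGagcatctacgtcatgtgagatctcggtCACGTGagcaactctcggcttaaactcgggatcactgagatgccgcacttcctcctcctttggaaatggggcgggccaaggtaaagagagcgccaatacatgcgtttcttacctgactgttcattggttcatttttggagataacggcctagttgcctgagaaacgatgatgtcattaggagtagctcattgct
Sgsh: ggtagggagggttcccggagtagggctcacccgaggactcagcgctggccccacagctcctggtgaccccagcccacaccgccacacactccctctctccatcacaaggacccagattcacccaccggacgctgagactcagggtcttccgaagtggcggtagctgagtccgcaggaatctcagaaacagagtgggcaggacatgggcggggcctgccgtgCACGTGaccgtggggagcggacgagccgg
Lamp1: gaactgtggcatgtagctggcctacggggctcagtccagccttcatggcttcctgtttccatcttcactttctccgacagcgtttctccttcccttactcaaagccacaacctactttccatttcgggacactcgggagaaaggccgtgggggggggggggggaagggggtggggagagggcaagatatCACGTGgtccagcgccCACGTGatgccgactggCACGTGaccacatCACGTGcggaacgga
A match describes the letters only, no binding was measured, and a link between the motif and the ratios was not tested.

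Over the whole list, limma called 7 of 43 members lower in gastrocnemius (16.3%, against 5.53% of the 12615 genes tested) and 3 higher (6.98%, against 9.86%), where 15.4% of all genes tested were called in either direction. In TA it called 6 of 43 lower (14%, against 7.28% of 12387 genes) and 4 higher (9.3%, against 8.98%), where 16.3% of all genes were called; the 4 include *Gaa*, whose probes disagree in sign, and 3 were called higher when a gene was taken as the mean of its probes. The median ratio of the members was -0.21 in gastrocnemius, with 34 of 43 below 0, where all genes had a median of 0.02 and 46.1% below 0. The TA median was -0.03, with 23 of 43 below 0, and turned positive without pair 2 (0.03); all genes again had a median of 0.02. Both muscles called 6 members in the same direction, *Ctsd*, *Psap* and *Tfeb* lower (6.98% of 43) and *Gla*, *Ids* and *Sgsh* higher (6.98%), where 2.1% of the 12209 genes with a kept probe in each muscle were lower in both and 4.25% higher in both. A further 4 (*Ctsc*, *Ctsz*, *Glb1*, *Npc2*) were called in gastrocnemius alone, 4 (*Ctsf*, *Scarb2*, *Smpd1*, *Gaa*) in TA alone, and 29 in neither. Of all genes tested, 15.4% were called in gastrocnemius and 16.3% in TA. Calls in the same direction in both muscles made up 6.35% of the 12209 genes, against 14% of the 43 members.

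**Figure D1:**
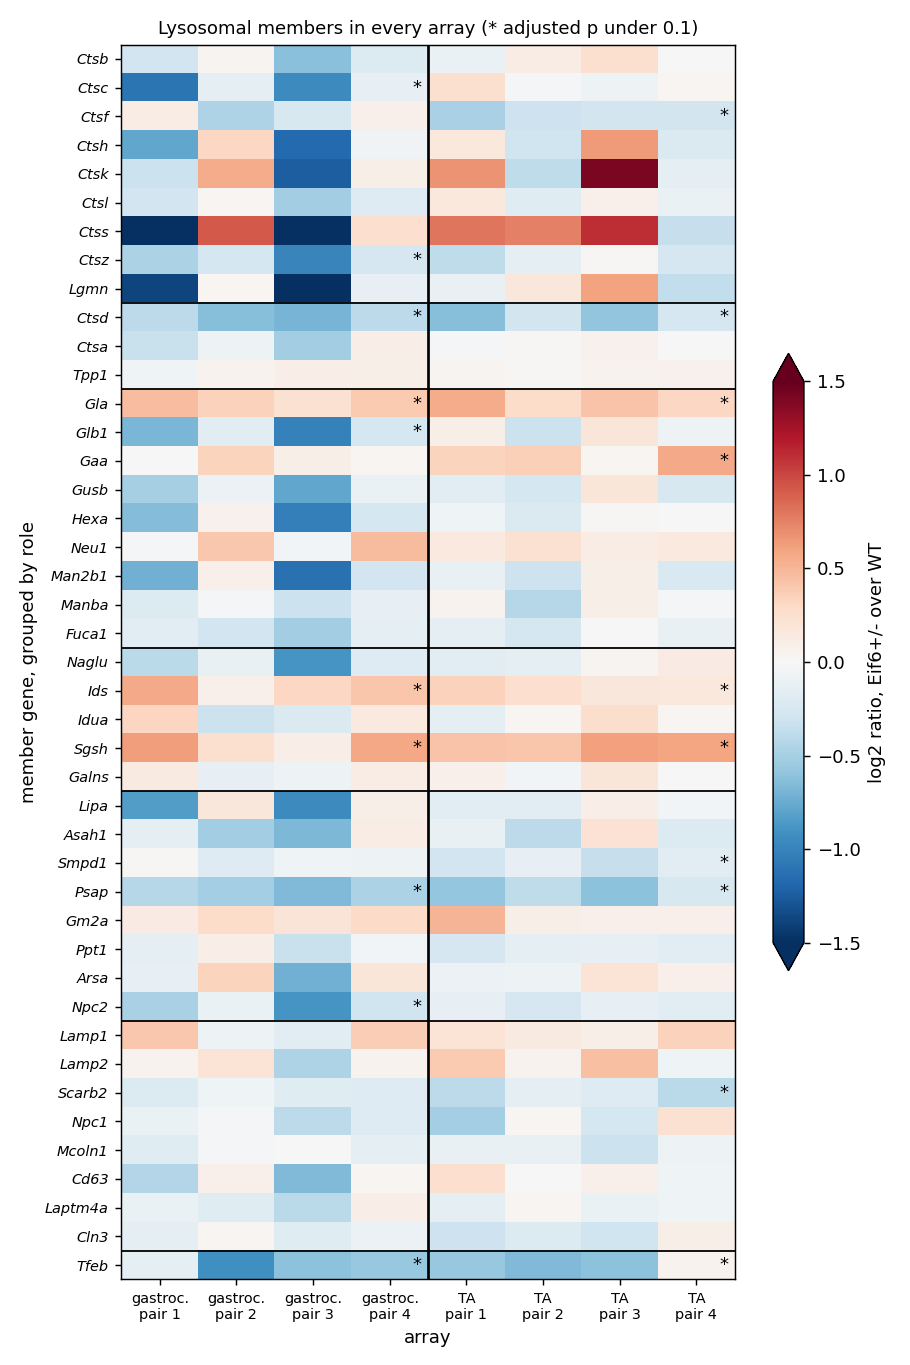
Log2 ratio of *Eif6*+/- over WT (colour, blue below 0 and red above) of the 43 tested members (rows, grouped by role) on each of the 8 arrays (columns, 4 pairs per muscle); a star at the right edge of a muscle's block marks an adjusted p under 0.1 in that muscle. The dark blue cells of the cathepsins and *Lgmn* lie on gastrocnemius pairs 1 and 3, as for *Ctss* (-1.98 and -2.19), and *Gla* and *Sgsh* are red on all 8 arrays.

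The cysteine proteases cut proteins inside the acid lumen, and several are plentiful in antigen-presenting cells. All 9 tested had a mean ratio below 0 in gastrocnemius (median -0.42; 8 or 9 below 0 and a median of -0.58 to -0.17 over 14 other settings), whereas 3 of 9 were below 0 in TA, with a median of 0.06 that changed sign over those settings (-0.04 to 0.09). *Ctsc* encodes a dipeptidyl peptidase that activates granule serine proteases, and it gave -1.10, -0.15, -0.96 and -0.12 on gastrocnemius pairs 1 to 4. All 4 arrays were below 0, with pairs 1 and 3 far lower than pairs 2 and 4. The mean was -0.58 (SD 0.52, WT 1.49-fold higher), and the adjusted p of 0.0997 lay at the threshold; the call was kept under 6 of 15 alternative settings and lost without pair 1, pair 3 or pair 4. TA values of *Ctsc* scattered around 0, at 0.24, -0.02, -0.07 and 0.03 (adjusted p 0.733).

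*Ctsz*, a carboxypeptidase of the same family, had ratios of -0.47, -0.27, -0.996 and -0.26 in gastrocnemius, with pair 3 the lowest and again all 4 below 0 (mean -0.50, SD 0.35, adjusted p 0.0684, kept under 10 of 15 alternative settings). Its TA ratios of -0.38, -0.13, 0.02 and -0.25 reached from below 0 to just above it and were not called (mean -0.19, adjusted p 0.185). *Ctsf* was called in TA only. There it gave -0.48, -0.31, -0.27 and -0.27, low on every array within a narrow range (mean -0.33, SD 0.10, WT 1.26-fold higher, adjusted p 0.0381, kept under 12 of 15), while in gastrocnemius pairs 1 and 4 were above 0 (0.11 and 0.07) and pairs 2 and 3 below (-0.47 and -0.24; adjusted p 0.488). None of the 3 genes called in a single muscle here was shown to differ between the muscles (adjusted p of the difference 0.636 for *Ctsc*, 0.663 for *Ctsz* and 0.716 for *Ctsf*).

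The widest spread of any member was that of *Ctss*, the cathepsin of antigen processing, with -1.98, 0.92, -2.19 and 0.25 on gastrocnemius pairs 1 to 4 and 0.80, 0.76, 1.102 and -0.35 on TA pairs 1 to 4. It was strongly low on gastrocnemius pairs 1 and 3, above 0 on pairs 2 and 4, and high on all TA pairs but the fourth, and limma called it in neither muscle (adjusted p 0.387 and 0.110). *Lgmn*, the asparaginyl endopeptidase that trims cathepsins into their mature forms, had the same shape in gastrocnemius (-1.37, 0.03, -1.53 and -0.13; adjusted p 0.136) and mixed signs in TA (-0.11, 0.17, 0.60 and -0.37; adjusted p 0.762). The aminopeptidase gene *Ctsh* (-0.78, 0.31, -1.16 and -0.05) and the collagen-degrading *Ctsk* (-0.33, 0.56, -1.24 and 0.09) were also below 0 on pairs 1 and 3 of gastrocnemius and above 0 on pair 2, with adjusted p of 0.280 and 0.602. On TA pair 3 both were instead high (0.63 and 1.41). *Ctsb* and *Ctsl*, endopeptidases found in most cell types, stayed closer to 0: their gastrocnemius ratios ran from -0.63 to 0.04 and from -0.52 to 0.03, their TA ratios from -0.10 to 0.24 and from -0.18 to 0.16, and neither was called (adjusted p 0.179 and 0.171 in gastrocnemius).

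The 2 channels of each array show where this spread lay. Normalized log2 signals of *Ctss* in gastrocnemius were 10.90, 8.42, 10.94 and 8.68 in the WT mice of pairs 1 to 4 and 8.93, 9.34, 8.75 and 8.92 in the *Eif6*+/- mice. The WT mice of pairs 1 and 3 were well above the other 6 mice, and the *Eif6*+/- mice lay close together, between the low and the high WT mice. For *Lgmn* the WT signals were 12.19, 11.04, 12.44 and 11.01 and the *Eif6*+/- signals 10.82, 11.07, 10.91 and 10.88, and for *Ctsc* they were 9.64, 8.92, 9.72 and 8.67 against 8.54, 8.78, 8.76 and 8.56; the WT mice of pairs 1 and 3 stood above all others for both genes. Over the 43 members the WT signal was highest on pair 3 for 30 (69.8%, against 22% of all genes tested) and the ratio was lowest on pair 3 for 31 (72.1%, against 23.8%). The SD over the 4 mice was larger in WT than in *Eif6*+/- for 36 of 43 members (83.7%, against 69.2% of all genes). The median SD of the members was 0.23 in WT and 0.09 in *Eif6*+/-, and that of all genes 0.15 and 0.11. In TA the SD was larger in WT for 25 of 43 (58.1%, against 59.7%), with median SDs of 0.11 and 0.10 (0.13 and 0.11 for all genes). WT was Cy3 and *Eif6*+/- Cy5 on every array, so a spread of genotype and one of dye cannot be told apart.

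Summed signals of macrophage markers were high in the same WT mice. Of 17 listed markers 16 had a named probe (*Cd68* had none) and 14 were tested (*Cd163* and *Fcgr1* were not), all 14 with a mean ratio below 0 in gastrocnemius (median -0.60), of which *C1qc* and *Cd14* were called lower (2 of 14, 14.3%, against 5.53% of all genes). Their summed normalized signal in gastrocnemius was 14794, 7867, 18605 and 7597 in the WT mice of pairs 1 to 4 and 7205, 8423, 7670 and 7247 in the *Eif6*+/- mice. Pairs 1 and 3 were high in WT here as they were for *Ctss*, *Lgmn* and *Ctsc*, although the ratio of *Itgam* was above 0 on pair 1 (0.35, -0.37, -0.32 and 0.03 on pairs 1 to 4). In TA the sums were 6345, 6594, 6089 and 7416 in WT and 6859, 5543, 7311 and 6987 in *Eif6*+/-, overlapping throughout, and *C1qb* was called lower (1 of 14, 7.14%, against 7.28% of all genes). The brightest marker probe was that of *Csf1r* in WT and of *Itgam* in *Eif6*+/-, which does not rank their transcripts, and each of the 16 was above background on at least 1 array.

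The 5 genes of MHC class II antigen presentation were all below 0 in gastrocnemius, with *Cd74* and *H2-DMa* called lower (2 of 5, 40%). None of the 5 was called in TA, where limma's adjusted p was 0.141 or more. Of all genes tested, 5.53% were called lower in gastrocnemius and 7.28% in TA. The MHC class II sums were 8733, 6145, 13788 and 5328 in WT and 5352, 5427, 4772 and 4958 in *Eif6*+/- mice of gastrocnemius, with *H2-Ab1* the brightest probe. General leukocyte markers summed to 1410, 1134, 1640 and 999 in WT and 986, 1077, 1037 and 975 in *Eif6*+/-, with *Cd3e* the brightest probe; *Coro1a* was called lower of 3 tested in gastrocnemius, none of 4 was called in TA (adjusted p 0.427 or more), *Cd79a* was above background on no array, and *Cd53* on none in *Eif6*+/-. Neutrophil markers summed to 645, 390, 1195 and 379 in WT and 362, 388, 392 and 345 in *Eif6*+/-, with *S100a9* the brightest probe, with *Ngp* above background on no array and *Retnlg* on none in *Eif6*+/-. In gastrocnemius 1 gene was tested and not called, and in TA both genes tested, *S100a9* and *Camp*, were called lower. *Camp* was above background in TA on 4 arrays in WT and on 2 in *Eif6*+/-, so it passed the filter through the WT channel, and limma's adjusted p was 0.099. In each of these lists the WT mice of pairs 1 and 3 had the highest sums of gastrocnemius. Their part in the lower ratios of the cathepsins and other members was not tested, and in whole muscle fewer cells of a type and less RNA per cell cannot be told apart.

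**Figure D2:**
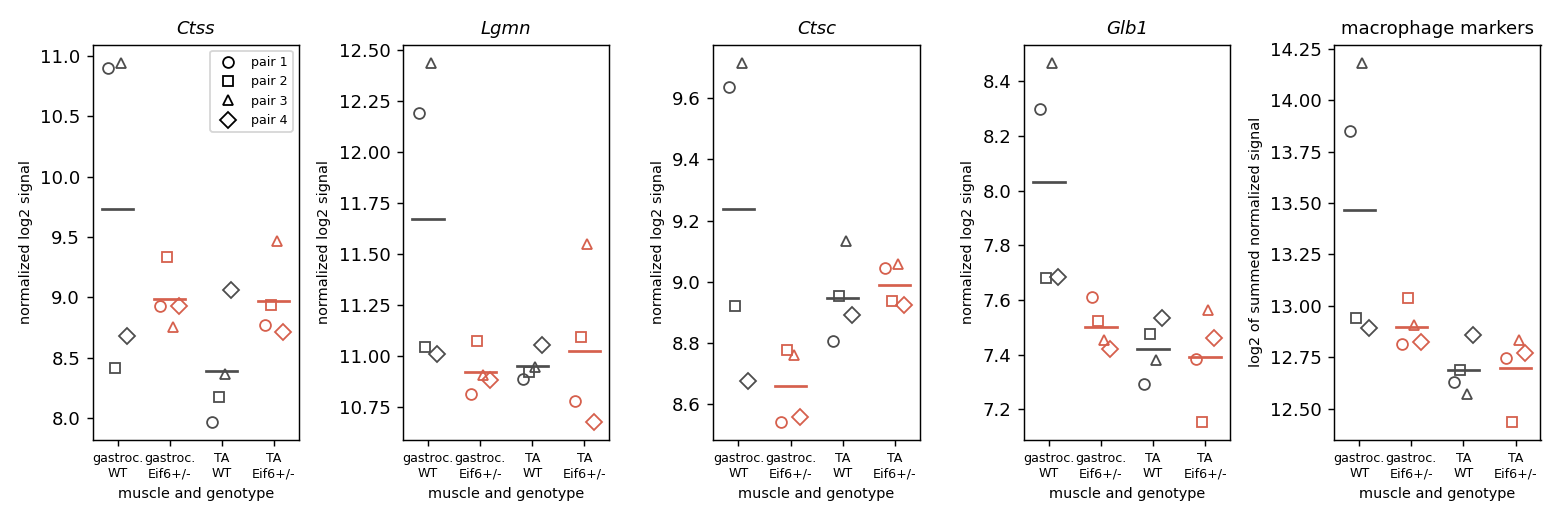
Normalized log2 signal of *Ctss*, *Lgmn*, *Ctsc* and *Glb1* and log2 of the summed macrophage markers (vertical axes, each with its own scale) in the 4 mice of each muscle and genotype (horizontal axis; one symbol per pair, bar for the mean). The WT gastrocnemius mice of pairs 1 and 3 stand apart in every panel, as for *Ctss* (10.90 and 10.94, against 8.42 and 8.68 in pairs 2 and 4).

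Fibroblast markers were called lower in gastrocnemius for *Dpt* and *Thy1* (2 of 9, 22.2%, against 5.53% of all genes) and in TA for none (adjusted p 0.408 or more), and their sums, with *Col1a2* the brightest probe, were 171440, 114631, 291561 and 135835 in WT and 172630, 118800, 115529 and 168845 in *Eif6*+/- mice of gastrocnemius. In TA they were 63956, 97658, 42587 and 91366 in WT and 76473, 55729.5, 177644 and 79419 in *Eif6*+/-, so that TA pair 3, where *Ctsk* reached 1.41, had the lowest WT and the highest *Eif6*+/- sum. Adipocyte markers were called lower for *Cfd* and *Adipoq* in gastrocnemius (2 of 6, 33.3%, against 5.53% of all genes). In TA *Retn*, *Cidec* and *Plin1* were called higher (3 of 6, 50%, against 8.98% of all genes). *Plin1* was above background in TA on all 4 arrays in *Eif6*+/- and on 3 in WT. In TA, where 7.28% of all genes were called lower, the lower calls took in red cell markers (*Hbb-bs*, *Hba-a1*, *Alas2* and *Hbb-bt*, 4 of 5), endothelial markers (*Pecam1* and *Emcn*, 2 of 5) and slow fibre genes (*Tnnt1*, *Tnni1* and *Tnnc1*, 3 of 6), lists without a call in gastrocnemius (adjusted p 0.104 or more). Fast fibre genes (9 tested in each muscle) were all above background. In gastrocnemius *Ckm* and *Actn3* were lower (22.2%, against 5.53% of all genes) and *Myh1* higher (11.1%, against 9.86%). *Mylpf* was lower (11.1%, against 7.28%) and *Myh4* higher (11.1%, against 8.98%) in TA. Sums of the slow fibre list in gastrocnemius were 16905, 93970.2, 63326 and 180504 in WT and 221474, 106522, 119816 and 212999 in *Eif6*+/-. The brightest probe of that list was that of *Myh2*, which encodes the fast IIA myosin, so these sums do not measure slow fibres alone. The median ratio over the 6 genes was 3.12, -1.45, -0.41 and -0.34 on pairs 1 to 4, above 0 on pair 1 only. The part of these tissue components in the members' ratios was not tested.

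*Ctsd* encodes the aspartic protease cathepsin D, and its promoter above holds both motifs. Its ratios were -0.39, -0.63, -0.70 and -0.39 in gastrocnemius and -0.64, -0.28, -0.59 and -0.25 in TA. All 8 arrays were below 0, and the signals of WT and *Eif6*+/- mice did not overlap in either muscle, at 14.14 to 14.34 against 13.64 to 13.76 in gastrocnemius and 13.89 to 14.30 against 13.51 to 13.78 in TA. The means of -0.53 (SD 0.16, WT 1.44-fold higher, adjusted p 0.0317) and -0.44 (SD 0.20, WT 1.36-fold higher, adjusted p 0.0337) were called, and the call was kept under 12 and 13 of 15 alternative settings. A second probe gave -0.21 (adjusted p 0.390) and -0.43 (adjusted p 0.0670). *Ctsa*, the serine carboxypeptidase that shields beta-galactosidase and sialidase, ran from -0.53 to 0.10 in gastrocnemius and from -0.02 to 0.06 in TA, and the tripeptidyl peptidase gene *Tpp1* from -0.07 to 0.09 and from 0.02 to 0.07; limma called neither (adjusted p 0.282 to 0.923).

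Glycosidases strip sugars from glycoproteins, glycolipids and glycogen. *Gla*, which encodes alpha-galactosidase A and has both motifs in its promoter, gave 0.46, 0.35, 0.23 and 0.39 in gastrocnemius and 0.56, 0.27, 0.43 and 0.32 in TA. All 8 were above 0, and the means of 0.36 (SD 0.10, *Eif6*+/- 1.28-fold higher, adjusted p 0.0458) and 0.40 (SD 0.13, 1.32-fold higher, adjusted p 0.0297) were called in both muscles and under 12 of 15 alternative settings in each. The beta-galactosidase gene *Glb1* had -0.69, -0.16, -1.01 and -0.26 in gastrocnemius, all below 0 with pairs 1 and 3 the lowest, and 0.09, -0.32, 0.18 and -0.07 in TA, on both sides of 0. It was called lower in gastrocnemius (mean -0.53, SD 0.40, WT 1.44-fold higher, adjusted p 0.0738, kept under 11 of 15), not in TA (mean -0.03, adjusted p 0.859), and the difference between the muscles was not called (adjusted p 0.636).

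*Gaa*, the acid alpha-glucosidase that degrades lysosomal glycogen, was above 0 on all 8 arrays with its brightest probe, at 0.01, 0.34, 0.09 and 0.03 in gastrocnemius (adjusted p 0.410) and 0.33, 0.36, 0.03 and 0.57 in TA. The TA mean of 0.32 (SD 0.22, 1.25-fold higher) was called at an adjusted p of 0.0715 (kept under 6 of 15 alternative settings), and the difference between the muscles was not (adjusted p 0.697). A second probe pointed the other way, with means of -0.59 in gastrocnemius (SD 0.50, adjusted p 0.0908) and -0.64 in TA (SD 0.58, adjusted p 0.0714), and the mean of both probes in TA was -0.16 (adjusted p 0.449), so no direction is given for *Gaa*. None of the 6 remaining glycosidases was called. *Hexa*, *Man2b1* and *Gusb*, which encode a beta-hexosaminidase subunit, alpha-mannosidase and beta-glucuronidase, were lowest on gastrocnemius pair 3 (-1.03, -1.12 and -0.78) and next lowest on pair 1 (-0.65, -0.72 and -0.50), with adjusted p of 0.131, 0.126 and 0.126. *Fuca1* (alpha-fucosidase, -0.53 to -0.13) and *Manba* (beta-mannosidase, -0.33 to -0.03) were below 0 on all 4 gastrocnemius arrays, at adjusted p 0.105 and 0.217. The sialidase gene *Neu1* was above 0 on all 4 TA arrays (0.11 to 0.22, adjusted p 0.170) and on pairs 2 and 4 of gastrocnemius (0.41 and 0.47).

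Among the enzymes that act on glycosaminoglycans, 2 of 5 (40%) were called higher in each muscle, *Sgsh* and *Ids*. Of all genes tested, 9.86% were called higher in gastrocnemius and 8.98% in TA. *Sgsh*, a heparan sulfate sulfatase, gave 0.63, 0.24, 0.10 and 0.58 in gastrocnemius and 0.43, 0.42, 0.61 and 0.60 in TA, above 0 on every array. *Eif6*+/- exceeded WT 1.31-fold (mean 0.39, SD 0.26, adjusted p 0.0764) and 1.43-fold (mean 0.52, SD 0.10, adjusted p 0.0136), and a second probe gave 0.34 (adjusted p 0.09998) and 0.39 (adjusted p 0.0252). The TA call was kept under 14 of 15 alternative settings and the gastrocnemius call under 8, and the latter was lost whichever gastrocnemius array was left out (adjusted p 0.104 to 0.257). *Ids*, the iduronate sulfatase that acts on heparan and dermatan sulfate, gave 0.57, 0.07, 0.31 and 0.41 in gastrocnemius and 0.35, 0.25, 0.17 and 0.16 in TA, again all above 0 (means 0.34 and 0.23, SD 0.21 and 0.09, adjusted p 0.0794 and 0.0814, kept under 11 and 9 of 15). *Naglu*, an alpha-N-acetylglucosaminidase of the same pathway, was below 0 on all gastrocnemius arrays (-0.41, -0.11, -0.88 and -0.20; adjusted p 0.109) and between -0.15 and 0.12 in TA. *Idua*, the iduronidase (-0.32 to 0.33 in gastrocnemius, -0.15 to 0.26 in TA), and *Galns*, a keratan sulfate sulfatase (-0.12 to 0.14 and -0.04 to 0.18), had both signs in each muscle and were not called.

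*Psap* encodes prosaposin, the precursor of the saposins that present sphingolipids to their hydrolases. Its ratios of -0.43, -0.51, -0.67 and -0.47 in gastrocnemius and -0.58, -0.38, -0.62 and -0.24 in TA were all below 0, and WT and *Eif6*+/- signals did not overlap within a muscle (13.29 to 13.62 against 12.82 to 12.95 and 13.05 to 13.40 against 12.64 to 12.82). Both means were called, -0.52 (SD 0.10, WT 1.43-fold higher, adjusted p 0.0287) and -0.46 (SD 0.18, WT 1.37-fold higher, adjusted p 0.0263), under 12 and 13 of 15 alternative settings. The sphingomyelinase gene *Smpd1* was called in TA, where it gave -0.29, -0.12, -0.34 and -0.15 (mean -0.23, SD 0.11, adjusted p 0.0909, kept under 7 of 15 alternative settings and lost whichever TA array was left out); in gastrocnemius it lay between -0.20 and 0.02 (adjusted p 0.521; difference between the muscles, adjusted p 0.710). *Npc2*, which binds cholesterol in the lumen, gave -0.49, -0.10, -0.89 and -0.29 in gastrocnemius, below 0 throughout with pairs 3 and 1 the lowest (mean -0.44, SD 0.34, WT 1.36-fold higher, adjusted p 0.0854, kept under 8 of 15). All 4 TA arrays of *Npc2* were also below 0 (-0.12, -0.25, -0.13 and -0.16; adjusted p 0.162), and the difference between the muscles was not called (adjusted p 0.664).

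The remaining lipid genes were not called. *Lipa*, the acid lipase, repeated the low values on gastrocnemius pairs 1 and 3 (-0.84 and -0.95) with positive ones on pairs 2 and 4 (0.17 and 0.08; adjusted p 0.273), and the ceramidase gene *Asah1* ran from -0.67 to 0.11 (adjusted p 0.197). *Arsa*, the sulfatide sulfatase, was lowest on gastrocnemius pair 3 (-0.72) and highest on pair 2 (0.33). *Gm2a*, a ganglioside activator, was above 0 on all 8 arrays (0.12 to 0.29 in gastrocnemius, adjusted p 0.109; 0.08 to 0.51 in TA, adjusted p 0.211), although its second probe was below 0 in gastrocnemius (mean -0.19). *Ppt1*, a thioesterase that removes palmitate from proteins, was below 0 on all 4 TA arrays (-0.25 to -0.12, adjusted p 0.159).

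Of the 8 membrane proteins, *Scarb2* was called, lower in TA (1 of 8, 12.5%, against 7.28% of all genes). It encodes the receptor that carries glucocerebrosidase to the lysosome and gave -0.39, -0.14, -0.19 and -0.40 in TA (mean -0.28, SD 0.14, WT 1.22-fold higher, adjusted p 0.0637) and -0.21, -0.07, -0.18 and -0.19 in gastrocnemius (mean -0.16, SD 0.06, adjusted p 0.196). All 8 arrays were below 0, the difference between the muscles was not called (adjusted p 0.769), and the TA call was kept under 8 of 15 alternative settings and lost whichever TA array was left out. *Lamp1* and *Lamp2*, the abundant glycoproteins of the membrane, had both signs in gastrocnemius (-0.16 to 0.40 and -0.46 to 0.20), and in TA *Lamp1* was above 0 on all 4 arrays (0.08 to 0.34, adjusted p 0.134) and *Lamp2* on 3 of 4 (-0.07 to 0.45, adjusted p 0.214). Of 9 members with 2 or more kept probes, the probe means differed in sign for *Gm2a* and *Gaa* in gastrocnemius and for *Asah1*, *Lamp2*, *Ctsa*, *Gaa* and *Idua* in TA, so these carry no direction there. The tetraspanin gene *Cd63* was low on gastrocnemius pairs 1 and 3 (-0.44 and -0.67) and above 0 on pairs 2 and 4 (0.08 and 0.03; adjusted p 0.280). *Npc1*, the cholesterol exporter, was below 0 on all 4 gastrocnemius arrays (-0.40 to -0.02, adjusted p 0.236) and mixed in TA (-0.51 to 0.23, adjusted p 0.502). *Mcoln1*, a calcium channel, was below 0 on all 4 TA arrays (-0.32 to -0.08, adjusted p 0.206), as were 3 of 4 TA ratios of *Cln3* (-0.31 to 0.09, adjusted p 0.214) and of *Laptm4a* (-0.15 to 0.03, adjusted p 0.554), both multispan proteins.

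*Tfeb*, the regulator that many lysosome genes respond to, gave -0.15, -0.92, -0.61 and -0.57 in gastrocnemius and -0.57, -0.66, -0.62 and 0.05 in TA. Of its 8 ratios 7 were below 0, with TA pair 4 the exception, and in gastrocnemius the lowest ratio was on pair 2 and the ratio nearest 0 on pair 1. The gastrocnemius WT signals (9.40, 10.19, 9.84 and 9.76) all lay above those of *Eif6*+/- (9.25, 9.27, 9.23 and 9.19). Both means were called, -0.56 (SD 0.32, WT 1.48-fold higher, adjusted p 0.0494) and -0.45 (SD 0.34, WT 1.37-fold higher, adjusted p 0.0600), under 12 and 9 of 15 alternative settings.

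**Figure D3:**
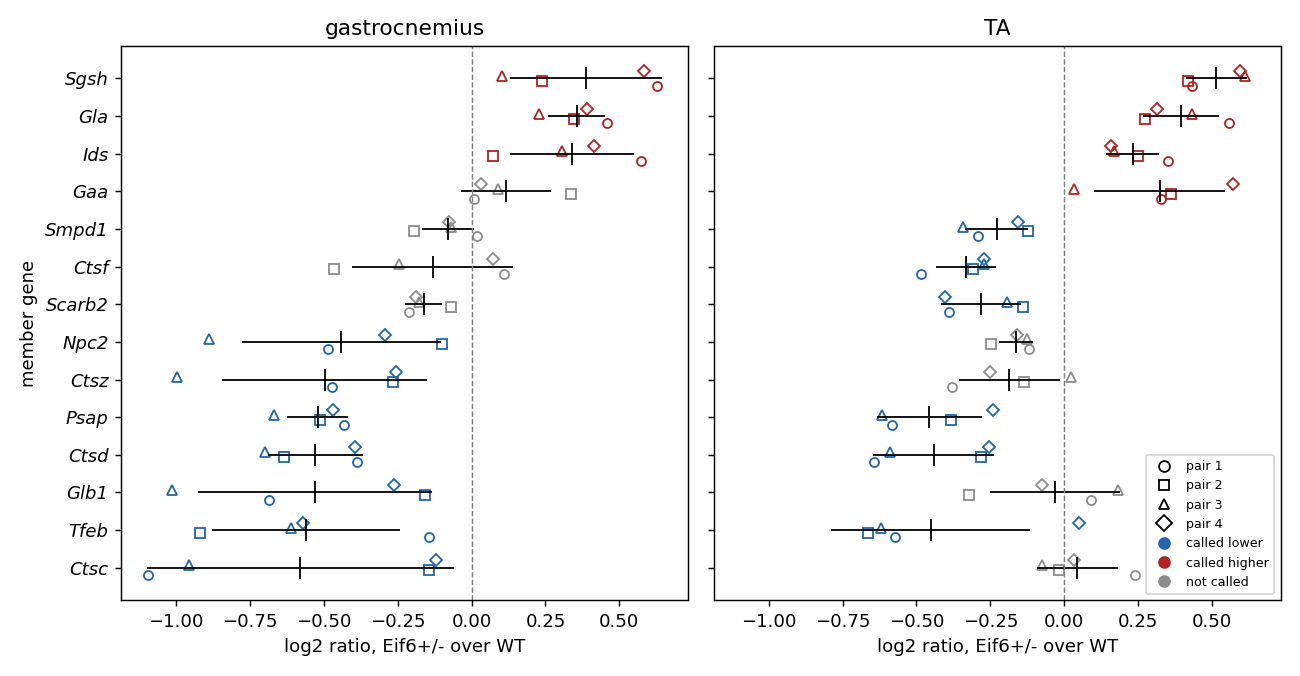
Log2 ratio of *Eif6*+/- over WT (horizontal axis) on each pair (symbols) for the 14 members called in either muscle (vertical axis), with the mean (tick) and SD (line); blue was called lower, red called higher, grey not called. *Ctsd* and *Psap* lie below 0 and *Gla*, *Ids* and *Sgsh* above 0 on all 8 arrays, while *Ctsc*, *Glb1* and *Npc2* spread toward low values on gastrocnemius pairs 1 and 3, as *Glb1* does (-0.69 and -1.01).

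Of 153 further genes of the lysosome and of the routes that feed it, 17 were called lower and 8 higher among 148 tested in gastrocnemius (11.5% and 5.41%, against 5.53% and 9.86% of all genes), and 18 lower and 11 higher among 146 in TA (12.3% and 7.53%, against 7.28% and 8.98%). Calls in either direction made up 16.9% and 19.9% of these genes, against 15.4% and 16.3% of all genes. Subunits of the proton pump that acidifies the lumen were lower for 4 of 19 in gastrocnemius and 4 of 18 in TA, where 1 was higher, and *Atp6v0b*, in its membrane sector, was low on all 8 arrays (means -0.78, adjusted p 0.0287, and -0.59, adjusted p 0.0237). Autophagy genes were lower for 2 and higher for 3 of 34 in gastrocnemius (14.7% called, against 15.4% of all genes) and lower for 5 and higher for 2 of 34 in TA (20.6%, against 16.3%). *Map1lc3a*, which encodes an autophagosome coat protein, gave -0.69, -0.78, -0.65 and -0.80 in gastrocnemius (adjusted p 0.0269) and -1.48, -0.43, -0.90 and -0.63 in TA (adjusted p 0.0244), while *Wipi1*, of the early autophagosome, was lower in TA (-0.45, adjusted p 0.0183) and the conjugation enzyme gene *Atg10* higher in gastrocnemius (0.43, adjusted p 0.0482).

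Genes that sort enzymes to lysosomes were lower for 5 and higher for 2 of 30 in gastrocnemius and lower for 5 and higher for 6 of 30 in TA, and all genes tested were lower for 5.53% and higher for 9.86% in gastrocnemius and lower for 7.28% and higher for 8.98% in TA. The adaptor gene *Gga1* was lower in gastrocnemius (-0.55, adjusted p 0.0506) and in TA (-0.33, adjusted p 0.0611), and the sorting receptor gene *Sort1* (0.50, adjusted p 0.0365), the adaptor subunit gene *Ap1b1* (0.39, adjusted p 0.0238) and *Gnptab*, whose enzyme makes the mannose phosphate tag (0.36, adjusted p 0.0419), were higher in TA. Among genes that control lysosome transcription, 1 of 17 was lower (5.88%) and 2 higher (11.8%) in gastrocnemius, and 2 of 16 lower (12.5%) and 2 higher (12.5%) in TA. *Mitf*, a relative of *Tfeb*, was higher in gastrocnemius (0.51, adjusted p 0.0322), as was *Rptor* of the kinase complex that restrains it (0.43, adjusted p 0.0390). Other hydrolases were lower for 3 of 26 in gastrocnemius (11.5%) and 1 of 26 in TA (3.85%), other membrane proteins lower for 1 and higher for 1 of 19 in gastrocnemius and lower for 1 of 19 in TA, and cathepsin inhibitors lower for 1 of 3 in gastrocnemius.

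For the muscles compared directly, limma called 0 of 43 members for a difference of the genotype ratio between gastrocnemius and TA, and 0 of 12206 genes (0%); 5 members and 997 genes had an unadjusted p under 0.05, and no other tool was run on this contrast. These 5 were *Ctsc* (-0.62), *Glb1* (-0.50), *Lgmn* (-0.82), *Ctsb* (-0.33) and *Naglu* (-0.36), each lower in gastrocnemius, and the smallest adjusted p over the members was 0.636. The median difference was -0.13 over the members, with 33 of 43 below 0, and 0.01 over all genes, with 5830 of 12206 below 0. *Ctss* had the widest difference of means (-1.33, adjusted p 0.647).

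Within WT mice, 4 members of 43 (9.3%) had a higher signal in gastrocnemius than in TA, where 21.1% of 12206 genes were called, 7.91% higher and 13.2% lower. They were *Glb1* (difference 0.61, adjusted p 0.0521), *Ctsz* (0.55, adjusted p 0.0562), *Hexa* (0.54, adjusted p 0.0617) and *Npc2* (0.45, adjusted p 0.0626), and limma called no member lower. At an unadjusted p under 0.05 limma had 12 members higher and 1 lower. In either direction that was 13 of 43 members, beside 3783 of 12206 genes. *Glb1* signals were 8.30, 7.68, 8.47 and 7.68 in gastrocnemius and 7.29, 7.48, 7.38 and 7.53 in TA of WT mice, so that the muscles did not overlap and gastrocnemius pairs 1 and 3 were the highest. The count of 4 was 1 without gastrocnemius pair 1 or pair 3, 12 without gastrocnemius pair 2 and 0 without TA pair 2 or pair 3. Within *Eif6*+/- mice, *Ctsc* was lower in gastrocnemius (8.54, 8.78, 8.76 and 8.56) than in TA (9.04, 8.93, 9.06 and 8.92) without overlap (difference -0.33, adjusted p 0.0325), where 16.9% of genes were called, 10.2% lower and 6.68% higher. No member was called higher by limma. At an unadjusted p under 0.05 limma had 3 members higher and 5 lower, beside 3442 of 12206 genes in either direction.

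**Figure D4:**
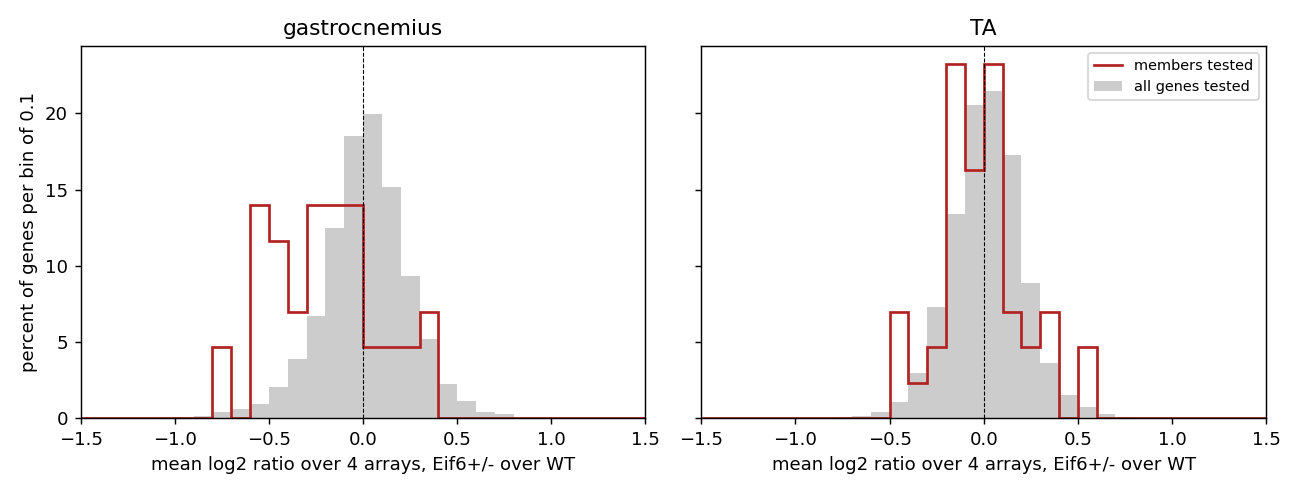
Distribution of the mean log2 ratio of *Eif6*+/- over WT (horizontal axis, bins of 0.1) over the members tested (red line) and over all genes tested (grey), as percent of genes per bin (vertical axis), in gastrocnemius (left) and TA (right). The members reach further below 0 in gastrocnemius, with a median of -0.21 against 0.02 for all genes, than in TA (-0.03 against 0.02).

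*Eif6*+/- RNA carried Cy5 on every array, so genotype and dye cannot be told apart, a dye bias of a probe would recur in both muscles, and the muscles also occupied separate rows of the slide. With 4 arrays per muscle the calls rest on each array: without gastrocnemius pair 3 or pair 4 limma called 0 of 43 members and 0 of 12675 and 12825 genes (7 members lower and 4 higher, and 15 lower and 3 higher, at an unadjusted p under 0.05), and without TA pair 1 it called *Sgsh* higher and no member lower (6 lower at an unadjusted p under 0.05), and 15 lower and 53 higher of 12452 genes. The unadjusted counts over all genes are not given here, so those of the members do not set them apart from other genes.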

How the data were processed

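Intensities are, per the file headers, spot signals that Agilent Feature Extraction 10.5.1.1 (design 033483) wrote for 62976 spots on each of 8 arrays, with 0 saturated spots. The log10 ratios are those deposited in the same files, made by that software from background-subtracted, dye-normalized signals. The log2 values are the table deposited by the authors; comparison with the spot files showed Eif6+/- over WT after loess within each array (r 0.999961 to 0.999996), with medians of 0.00209, 0.000831, -0.00232 and 0.00375 in gastrocnemius and 0.000688, -0.000564, 0.000349 and 0.00198 in TA for pairs 1 to 4.

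Results rest on median spot intensities, processed with limma 3.58.1 in R 4.3.3 (with version 1.17.8 of data.table): normexp background correction with an offset of 50 against the median local background, loess within arrays (control spots at weight 0), and quantile normalization over 16 channels. Spots the scanner software marked as deviating were left out and the rest averaged per probe. Of 55681 probes, 28685 carried a RefSeq accession and 27235 were named, for 20660 genes. A probe was kept in a muscle when each of its 4 arrays had it well above background in Cy5, Cy3 or both (23802 in gastrocnemius, 23391 in TA, 22765 in both), and a gene was counted by its brightest kept probe. Ratios were tested against 0 by muscle, and channels and ratios between muscles, by moderated t with Benjamini-Hochberg adjustment over all kept probes. Of 46 members 35 had 1 probe and 11 had more.

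Named genes are all members and, from the lists of 153 other lysosome genes, the 3 called genes with the largest mean ratio in each direction and muscle. Of the markers, the called ones are named. The brightest probe and untested genes are named for some marker lists only. Marker lists reported cover macrophage, MHC class II, leukocyte, neutrophil, red blood cell, fibroblast, adipocyte, endothelium, fast fibre and slow fibre genes; a further list was run and is not reported because it holds an item withheld for evaluation. The members and lists were chosen with earlier results of these data known. Alternatives changed normalization, background correction, signals, filter, test (t-test, SAM with 16 sign changes), threshold, probe choice and the arrays used; a filter asking that as many of a probe's spots pass as fail was chosen after seeing the data. Figures and promoter searches used Python 3.11.15, matplotlib 3.10.9 and numpy 2.4.6.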

Additional observations from a re-analysis of the deposited data

Results flagged for a closer look

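A single array stood away from the other 3 of its muscle in 3 of 86 sets of 4 ratios, where chance gives about 1 in 20. *Gm2a* was 0.51 on TA pair 1, against 0.08 to 0.09 on the others. *Mcoln1* was -0.32 on TA pair 3, against -0.11 to -0.08. *Tfeb* was 0.051 on TA pair 4, against -0.66 to -0.57.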

How the results depend on the processing

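In gastrocnemius, where 7 members were called lower and 3 higher, Agilent processed signals gave 4 lower, SAM at 0.1 gave 13 lower, and a threshold of 0.05 gave 3 lower and 1 higher. A one-sample t-test of the ratios called 0 lower and 0 higher after adjustment (4 and 3 at an unadjusted p under 0.05). In TA, with 6 lower and 4 higher, normexp at offset 0 gave 2 higher, Agilent processed signals 3 lower and 1 higher, SAM at 0.05 3 lower and 2 higher, a threshold of 0.05 3 lower and 2 higher, and the t-test 0 and 0 (7 and 6 unadjusted). For the t-test, unadjusted counts over all genes are not given here, so the members' counts have no background beside them. The mean of all kept probes turned *Gaa* in TA from 0.32 to -0.16. The cause was not tested. Counts over all genes moved too: against 698 lower and 1244 higher in gastrocnemius and 902 and 1112 in TA, Agilent processed signals gave 395 and 813, and 332 and 512, SAM at 0.1 1049 and 2182, and 1079 and 1430, SAM at 0.05 462 and 1265, and 286 and 560, a threshold of 0.05 194 and 434, and 337 and 500, normexp at offset 0 517 and 935, and 530 and 686, and the t-test 0 and 0, and 10 and 14.

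Leaving out 1 array gave 0 to 10 members lower and 0 to 2 higher in gastrocnemius (median -0.26 to -0.11), with 3 and 1 without pair 1 and 0 and 0 without pair 3 or pair 4. In TA it gave 0 to 5 lower and 1 to 4 higher (median -0.08 to 0.03), with 0 and 1 without pair 1, 2 and 2 without pair 2, and 3 lower without pair 3. All genes gave 721 lower and 1047 higher, 547 and 792, 0 and 0, and 0 and 0 without gastrocnemius pairs 1 to 4 in turn, and 15 and 53, 197 and 346, 450 and 737, and 932 and 1104 without TA pairs 1 to 4. In WT mice 0 to 12 members were higher in gastrocnemius than in TA (12 without gastrocnemius pair 2, 8 without pair 4, 0 without TA pair 2 or 3) and 0 to 1 lower; without the filter 1 was higher and at a threshold of 0.05 0 were. In Eif6+/- mice 1 to 2 were lower and 0 to 1 higher, and 1 was higher with quantile normalization alone. For the difference of ratios limma called 0 throughout.

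The labels do not say that pair numbers pair samples between muscles, and they were not used so: same-number correlations of ratios were -0.14, 0.02, -0.36 and 0.09, no gastrocnemius array matched its own number best by ratio, and of the single channels WT of pair 4 (0.19) and Eif6+/- of pairs 1 and 4 (0.19 and 0.15) did. With a replicate block for the number, 0 members differed in ratio, 4 were higher and 0 lower in WT, and 1 lower and 0 higher in Eif6+/-.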
